A study of Mus musculus with 57 samples.

Results

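Of 24963 autosomal genes, 86 had a promoter that carried the active histone mark H3K4me3 in the brain cortexes of PSAPP mice, lacked it in the gastrocnemius of those animals, and had the repressive mark H3K27me3 in at most 1 library of either tissue. They were chosen by the peak calls of the deposited libraries. A gene was taken when the window of 1 kb on each side of its most upstream annotated transcription start site (TSS) touched an H3K4me3 peak in at least 8 of 9 cortex libraries and in no gastrocnemius library, and an H3K27me3 peak in at most 1 library of each tissue. The first condition alone held for 14664 genes, and 535 of these (2.14% of all autosomal genes) had no gastrocnemius H3K4me3 peak. Of the 535, H3K27me3 was called in at least 8 of 10 gastrocnemius libraries at 321 and in 2 to 7 at 119, and 9 more had cortex H3K27me3 in over 1 library, which left the 86. Pairs of overlapping windows reduced them to 82 separate loci. Because H3K4me3 and H3K27me3 chose these genes, their values at the TSS are given below as a description and not tested, while H3K27ac, which the choice did not use, was tested.

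The study profiled H3K4me3, H3K27ac and H3K27me3 by chromatin immunoprecipitation and sequencing (ChIP-seq) in brain cortexes and gastrocnemius muscles of PSAPP mice killed at 13 months of age, to ask how these marks differ between males and females. PSAPP mice express a mutated human presenilin 1 and a chimeric mouse/human amyloid precursor protein with the Swedish mutation, and form amyloid plaques in the cortex; every animal carried both transgenes, so no group without them entered any comparison. During the study all were singly housed and fed a set daily amount of a modified AIN-93 diet, after group housing with free access to chow before it. Each mark was measured in 9 cortexes and 10 gastrocnemius muscles from 10 mice, 9 of which gave both tissues, and the mice were of both sexes, although the sample labels do not give the sex of each library. The cortex and the muscle are whole tissues, so a lower mark can come from fewer cells that carry it or from less of it per cell, and these cannot be told apart.

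H3K4me3 is laid down around the start sites of genes that are transcribed or poised, H3K27ac marks active promoters and enhancers, and H3K27me3 is deposited by Polycomb repressive complex 2 over genes held silent. In many tissues, CpG-rich promoters of genes for other lineages are covered by H3K27me3, whereas promoters with few CpG dinucleotides can be silent without it. The 86 promoters had no H3K4me3 peak in muscle and nearly no H3K27me3 peak there.

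Genes that define the tissues mostly followed the labels. H3K4me3 was present at the TSS of Snap25 and Gad1 in 9 of 9 cortexes and in no gastrocnemius, and at that of Ckm, Myh4, Tnnt3 and Ttn in 10 of 10 gastrocnemius muscles and in no cortex. It was not tissue-specific at the cortex markers Syt1, Slc17a7 and Mbp, which had it in 10 of 10 gastrocnemius muscles too, nor at the muscle markers Ryr1 and Acta1, which had it in 5 cortexes and 1 cortex. Reads under peaks ranged from 9.50 to 18.99 M for cortex H3K4me3, from 9.16 to 15.0 M for gastrocnemius H3K4me3, and from 3.94 to 27.3 M for H3K27ac. The lowest was the H3K27ac library of cortex 9, and the next lowest for that mark had 14.4 M. Among the H3K27me3 libraries, gastrocnemius 5 had 18.2 M reads under peaks against a median of 5.73 M for that tissue. Levels below are reads of called peaks within the window per 1 M reads in autosomal peaks of the library (RPM), and a promoter without a peak stands at 0, which says that no peak was called there and not that no read fell there.

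The promoters had few CpG dinucleotides. In the window from 250 bases before to 50 bases from the TSS on, the ratio of observed to expected CpG had a median of 0.335 over the 86 (quartiles 0.231 and 0.461), against 0.525 over all autosomal genes, 0.782 over the 13419 genes with H3K4me3 in every library of both tissues, and 0.487 over the 321 genes with gastrocnemius H3K27me3. A ratio above 0.6 was found at 12 of the 86 (13.95%), at 35.8% of the 321 and at 44.9% of all autosomal genes. The 150 genes with the opposite pattern, H3K4me3 in at least 9 gastrocnemius libraries and no cortex, with H3K27me3 in at most 1 library of each tissue, had a still lower median of 0.224. The GC share had a median of 46.7% for the 86, 51.0% for these 150, 57.0% for the 321 and 62.0% for the genes marked everywhere.

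**Figure D1:**
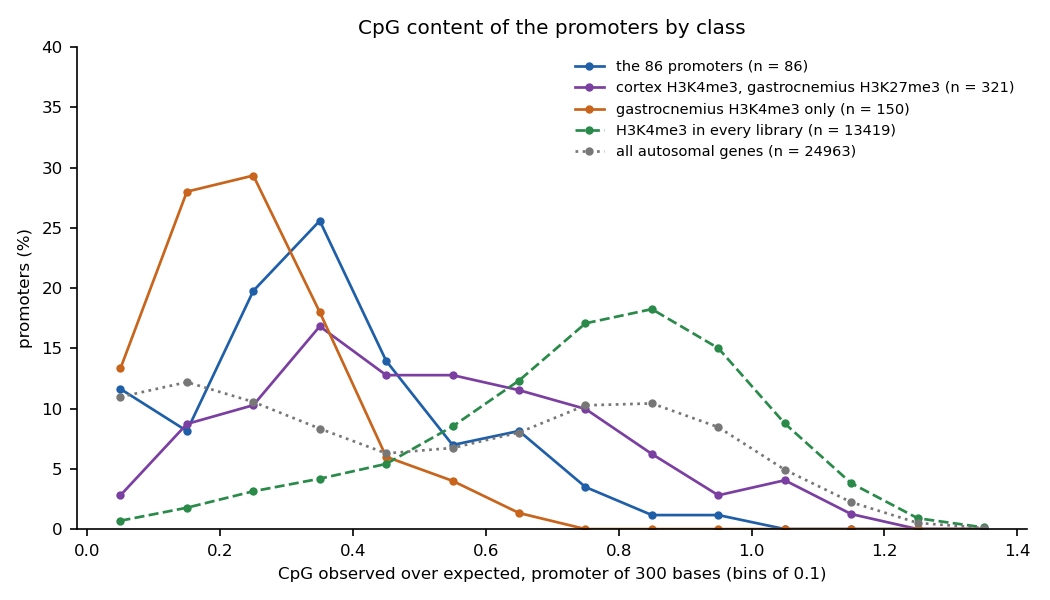
Share of promoters (vertical axis, %) by the ratio of observed to expected CpG in the promoter (horizontal axis, bins of 0.1), with 1 line for each class of genes. The 86 promoters peak between 0.3 and 0.4 and lie left of the genes with H3K4me3 in every library, while the genes marked only in gastrocnemius lie further left.

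The bases just before the TSS of 7 of these genes are printed to show this composition next to the marks described below, from mm10 (GRCm38.p6, RefSeq annotation), 5′ to 3′ on the strand of the gene, with each CG in capitals. They come from windows of 250 bases that overlap no annotated exon, and were picked to cover a receptor subunit (Gabrg1), a transporter (Slco1c1), a microglial receptor (P2ry13), a pair of genes acetylated in both tissues (Gpr61 and Asah2), a gene without acetylation (Gm29729) and one of the more CpG-rich members (Vxn).
Gabrg1 (chr5:70842618-70842867, minus strand): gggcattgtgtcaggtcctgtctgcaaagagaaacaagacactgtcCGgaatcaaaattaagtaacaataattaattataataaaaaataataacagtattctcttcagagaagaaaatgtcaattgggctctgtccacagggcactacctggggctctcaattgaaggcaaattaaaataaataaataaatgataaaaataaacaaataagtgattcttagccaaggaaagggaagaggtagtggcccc
Slco1c1 (chr6:141524104-141524353, plus strand): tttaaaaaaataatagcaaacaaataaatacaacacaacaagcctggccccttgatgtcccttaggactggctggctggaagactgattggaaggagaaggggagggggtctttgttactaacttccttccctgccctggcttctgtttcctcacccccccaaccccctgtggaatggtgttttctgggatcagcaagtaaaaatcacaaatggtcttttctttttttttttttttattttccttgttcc
P2ry13 (chr3:59210883-59211132, minus strand): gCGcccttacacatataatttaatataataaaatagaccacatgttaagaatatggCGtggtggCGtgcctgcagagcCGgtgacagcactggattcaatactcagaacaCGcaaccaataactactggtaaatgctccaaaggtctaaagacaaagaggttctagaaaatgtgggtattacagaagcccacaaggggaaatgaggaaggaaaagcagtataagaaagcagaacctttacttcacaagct
Gpr61 (chr3:108154933-108155182, minus strand): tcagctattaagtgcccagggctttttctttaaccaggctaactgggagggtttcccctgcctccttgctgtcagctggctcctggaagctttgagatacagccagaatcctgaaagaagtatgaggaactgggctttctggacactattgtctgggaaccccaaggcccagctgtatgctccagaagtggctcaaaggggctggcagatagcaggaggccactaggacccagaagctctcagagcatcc
Asah2 (chr19:32103141-32103390, minus strand): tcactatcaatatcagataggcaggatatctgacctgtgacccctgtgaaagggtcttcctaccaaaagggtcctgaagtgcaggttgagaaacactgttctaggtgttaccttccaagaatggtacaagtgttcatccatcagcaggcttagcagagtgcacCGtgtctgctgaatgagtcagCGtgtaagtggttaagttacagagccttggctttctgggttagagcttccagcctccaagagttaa
Gm29729 (chr7:60939884-60940133, minus strand): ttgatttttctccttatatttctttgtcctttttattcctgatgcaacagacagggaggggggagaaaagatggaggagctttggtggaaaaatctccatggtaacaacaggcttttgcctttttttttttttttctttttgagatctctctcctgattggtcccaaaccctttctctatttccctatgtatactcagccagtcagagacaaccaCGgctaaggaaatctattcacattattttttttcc
Vxn (chr1:9601017-9601266, plus strand): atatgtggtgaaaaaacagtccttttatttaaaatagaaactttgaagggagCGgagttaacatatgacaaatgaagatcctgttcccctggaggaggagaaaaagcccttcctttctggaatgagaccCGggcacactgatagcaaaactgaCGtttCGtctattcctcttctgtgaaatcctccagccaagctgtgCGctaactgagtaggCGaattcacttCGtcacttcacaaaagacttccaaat
The stretches of Slco1c1 and Gpr61 held no CG, those of Gabrg1 and Gm29729 held 1, that of Asah2 held 2, that of P2ry13 held 5 and that of Vxn held 7.

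Short motifs were searched on both strands of the 300-base window. TATAAA was present in 15.1% of the 86 promoters and in 13.1% of all autosomal promoters, CAGCTG in 22.1% and 15.7%, CAGATG in 11.6% and 15.5%, and TGACGTCA, the cyclic AMP response element, in 2.33% (Rit2 and Gm42372) and 2.28%. RE1, the element bound by the neuronal repressor REST, was matched in none of the 86 and in 0.0881% of all promoters of this length. Over the wider window of 1 kb on each side of the TSS, RE1 was matched at 3 of the 86 (3.49%), at 5.92% of the 321 genes with gastrocnemius H3K27me3 and at 0.529% of all autosomal genes. The 3 genes were Scn2a and Glra3, which encode a voltage-gated sodium channel and a glycine receptor subunit, and Vwc2l, and the matches are shown because the element is known from neuronal genes that are silent elsewhere. The matched letters are in capitals, with 6 bases on each side.
Scn2a (chr2:65619958-65619986, plus strand): ttggctTTCAGCACCACGGACAGcaccag
Glra3 (chr8:55940758-55940786, minus strand): aggagcTTCAGCACCTCAGACAGctcccg
Vwc2l (chr1:70725764-70725792, minus strand): gaattcCTCAGCACCACGGACAGcgccaa
Counted along the gene from the TSS, the centre of the match lay at -797 in Scn2a, outside annotated exons, and at 354 in Glra3 and 63 in Vwc2l, where it fell in an exon.

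Protein-coding genes made up 67 of the 86, with 14 long non-coding RNAs, 4 microRNAs and 1 pseudogene. Protein-coding genes were 77.9% of the 86 and 80.2% of all autosomal genes. Chromosomes 1 and 18 each held 13 of the 86 (15.1%), whereas they held 5.89% and 2.64% of all autosomal genes. The cell adhesion genes were the largest group, with 20 members, followed by 16 channels, receptors and transporters, 13 enzymes and signalling proteins, and 5 transcription factors or RNA-binding proteins. These groups were assigned by hand after the members were known. The 20 adhesion genes include 4 Pcdha and 3 Pcdhb genes, and Gm38666 and Gm38667, which share windows with Pcdha6 and Pcdha7. All of these lie in the protocadherin cluster and count among the 13 on chromosome 18, so they are not separate loci.

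Of 306 autosomal genes on 9 lists of neuronal genes (vesicle release, glutamate receptors, GABA signalling, ion channels, other receptors, synaptic adhesion, cytoskeleton and transcription factors), 292 had cortex H3K4me3 in at least 8 of 9 libraries. Of those, 220 also had it in gastrocnemius, counting a peak in any library, and 72 had it in no gastrocnemius library. At least 9 gastrocnemius libraries had it at 177 of the 306. Of the 72, gastrocnemius H3K27me3 covered 47 in at least 8 of 10 libraries and 7 were members (2.29% of the 306, where 0.345% of all autosomal genes were members): Gabrg1, Scn2a, Scn3a, Lrrtm4, Cntnap5a, Cntn6 and St18. Among genes with H3K4me3 in cortex alone the order was the other way, with 9.72% of the 72 and 16.1% of all 535 such autosomal genes being members. Gastrocnemius H3K27me3 covered 65.3% of the 72 and 60% of the 535. The lists of vesicle release, glutamate receptor, potassium channel, amine and peptide receptor and cytoskeletal genes had no member, nor did those of astrocytes and skeletal muscle. That holds only for the genes listed, since members such as Aldoc and Slc25a18 were on none of the lists. Among lists for other cells of the cortex, Omg was the member from the oligodendrocyte list, P2ry12 and P2ry13 came from the microglial list, and Slco1a4 and Slco1c1 came from the endothelial list. All 14 lists were written with earlier results of these libraries known.

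Cortex H3K4me3 at the 86 promoters was low for a marked promoter. The mean level per promoter had a median of 7.60 RPM (quartiles 4.199 and 14.01), against 39.5 RPM over all 14664 autosomal genes with cortex H3K4me3 in at least 8 of 9 libraries and 15.0 RPM over the 321 with gastrocnemius H3K27me3. The peaks were nearly as wide as elsewhere, with a median of 2600 bp against 3000 bp. The spread between libraries was small at most of the promoters. Over the 79 with a peak in 9 of 9 cortexes, the coefficient of variation between libraries had a median of 19.1% and ran from 4.08% to 39.1%.

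**Figure D2:**
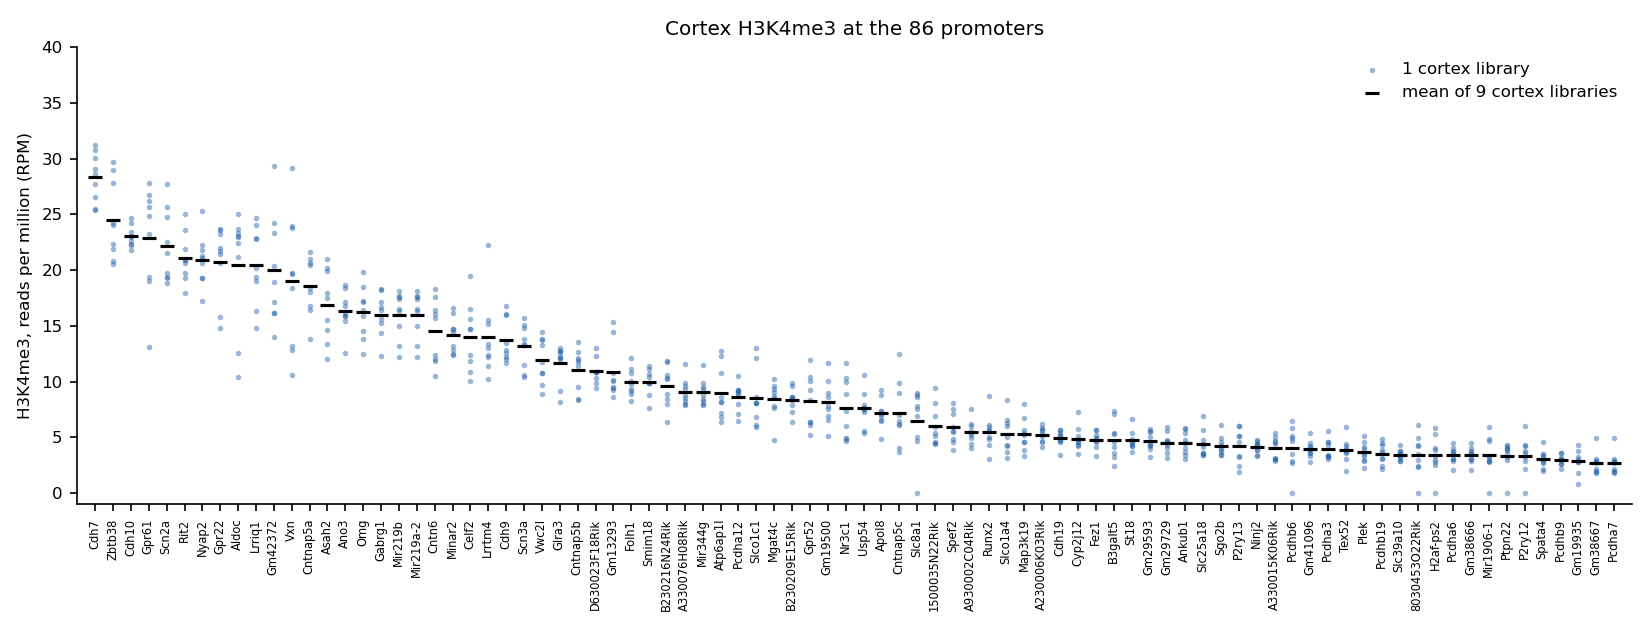
Cortex H3K4me3 in RPM (vertical axis) at each of the 86 promoters (horizontal axis, ordered by mean), with 1 point per cortex library and a bar at the mean of 9. The means fall from 28.3 RPM at Cdh7 to 2.69 RPM at Pcdha7, and the 7 promoters with a point at 0 are those called in 8 of 9 libraries.

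The highest levels were at Cdh7, a type II cadherin that mediates adhesion between neurons. Its TSS lies at position 109982900 of chromosome 1, and cortex H3K4me3 there was between 25.4 and 31.2 RPM with a median of 28.6 (mean 28.3 ± 2.18, SD, n = 9). At Zbtb38, which encodes a zinc finger protein that binds methylated DNA, the cortex values ran from 20.5 to 29.7 RPM with a median of 24.1. Cdh10, another type II cadherin, had the lowest coefficient of variation between libraries, 4.08%, with values from 21.8 to 24.7 RPM with a median of 22.9. Every cortex library at these genes lay above the median of the 86.

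Gpr61, an orphan receptor, followed with 13.1, 24.9 and 27.8 RPM as the lowest, median and highest cortex library. Scn2a, the sodium channel subunit Nav1.2 of excitatory neurons, had 18.8, 21.5 and 27.7 RPM. Rit2, a small GTPase of neurons, had 17.97, 20.9 and 25.01 RPM. Gpr61 was the most variable of these, with cortex 1 lowest.

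The lowest levels were those of genes of several kinds. The Pcdha7 and Gm38667 promoters, which share a window, averaged 2.69 ± 0.967 RPM (SD, n = 9), the predicted gene Gm19935 averaged 2.83 ± 1.02, and Pcdhb9 averaged 2.95 ± 0.459. Spata4, at 3.04 RPM, the microglial receptor P2ry12, at 3.34 RPM, the phosphatase gene Ptpn22, at 3.36 RPM, and Mir1906-1, at 3.38 RPM, stood below Pcdha6, at 3.39 RPM, while Pcdha12 averaged 8.61 RPM, above the median member. The 7 members called in 8 of 9 cortexes were also near the lower end, except Slc8a1. The sodium-calcium exchanger Slc8a1 reached 9.003 RPM with a median of 7.54 and had no peak in cortex 2, while Pcdhb6, with a median of 4.67 RPM, lacked one in cortex 3 and the long non-coding RNA 8030453O22Rik, with a median of 3.49 RPM, lacked one in cortex 6. Just outside the rule were 5 genes with a peak in a single gastrocnemius library. The mitochondrial gene Gdap1 averaged 21.8 RPM in cortex and had 2.94 RPM in gastrocnemius 9, Tprkb averaged 9.07 with 1.01 RPM in gastrocnemius 5, and Dnah7c averaged 8.15 with 2.501 RPM in gastrocnemius 7.

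H3K27ac, the mark not used in the choice, was compared between the tissues by the number of libraries with a peak in the window, with a two-sided Fisher's exact test per promoter over all 24963 autosomal genes and Benjamini-Hochberg adjustment at an FDR of 0.1. It was called in more cortex than gastrocnemius libraries at 54 of the 86 (62.8%) and in fewer at none, whereas 6.25% of all autosomal genes were called higher in cortex and 2.77% lower. At an unadjusted p below 0.05 by the same test, 55 of the 86 passed, all higher in cortex. The share of all autosomal genes at that limit is not given here, so nothing is read from the 55. The shares differed between classes of genes, with no test of that difference. Among the 321 genes with gastrocnemius H3K27me3, 261 (81.3%) were called higher in cortex, and among the 13419 marked in every library, 2.87%.

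The members fell into a few patterns. H3K27ac was present in at least 8 of 9 cortexes and no gastrocnemius at 42, and in at least 8 of 9 cortexes with 1 to 3 gastrocnemius libraries at 10. Another 17 had it in at least 8 of 9 cortexes and at least 7 of 10 gastrocnemius libraries. At 8 it was present in 1 to 6 cortexes and no gastrocnemius, and 9 had no H3K27ac peak in any library. The last 9 had a median CpG ratio of 0.579 and the 54 called higher in cortex one of 0.322. Of the 9, 6 were adhesion genes of the protocadherin cluster on chromosome 18, some with a shared window, at 0.210 (Pcdhb9) to 0.950 (Gm38666). The others were Sgo2b at 0.476, Mir1906-1 at 0.266 and Gm29729 at 0.081. A link between the CpG ratio and H3K27ac was not tested. Across the 86, the cortex levels of H3K4me3 and H3K27ac moved together (Spearman's rho 0.70 over 86 promoters, which share the same animals and include overlapping windows), and rho was 0.03 between H3K4me3 and the CpG ratio.

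**Figure D3:**
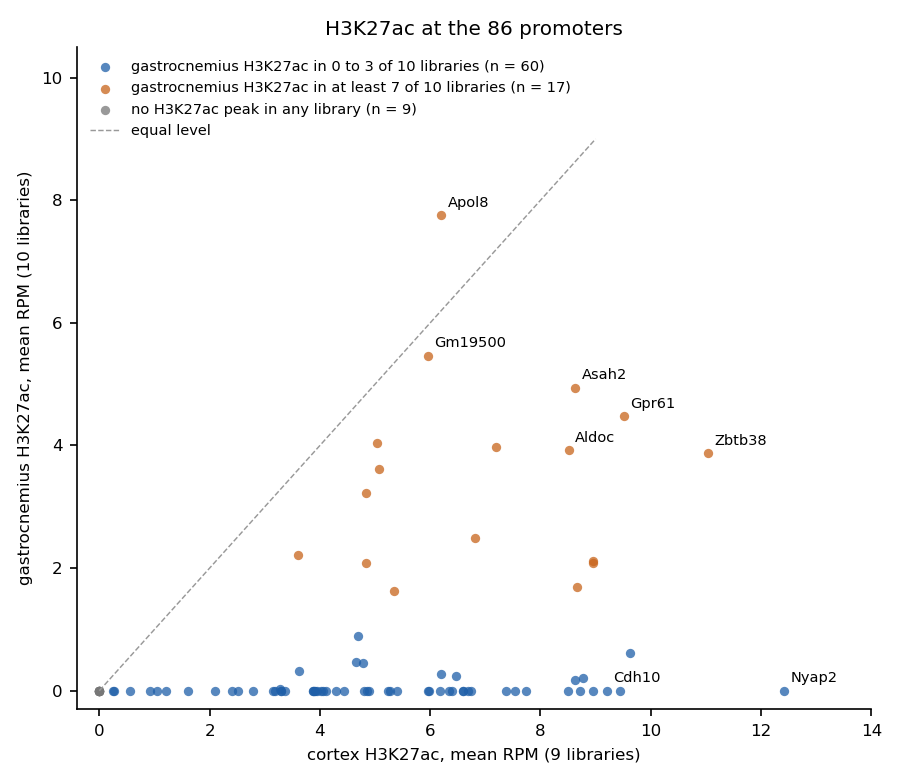
Mean H3K27ac of the 86 promoters in gastrocnemius (vertical axis, RPM, 10 libraries) against cortex (horizontal axis, RPM, 9 libraries), coloured by the number of gastrocnemius libraries with a peak. The 59 promoters without a gastrocnemius peak lie on the horizontal axis, the 17 with one in at least 7 libraries rise furthest above it, and Apol8 alone lies above the line of equal level.

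The share of the 86 with an H3K27ac peak was between 81.4% and 86.05% in 8 cortexes and 65.1% in cortex 9, the library with the fewest reads. In gastrocnemius it ran from 16.3% to 25.6% with a median of 20.9%. Over all autosomal genes the shares were 60.1% to 67.0% and 60.9% to 63.8%, so the lowest cortex exceeded the highest gastrocnemius at these promoters while the tissues were close over the genome. The surroundings of the promoters were poor in H3K27ac in both tissues. Between 1 and 50 kb from the TSS, a member had a median of 6.91 kb under H3K27ac peaks in the median cortex (2.95 to 9.40 kb over libraries), against 18.8 kb for all autosomal genes. In gastrocnemius the median was 0 kb in the median library and at most 1.4 kb, against 21.7 kb for all autosomal genes. The genes with gastrocnemius H3K27me3 also had 0 kb there, but 14.2 kb in cortex.

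**Figure D4:**
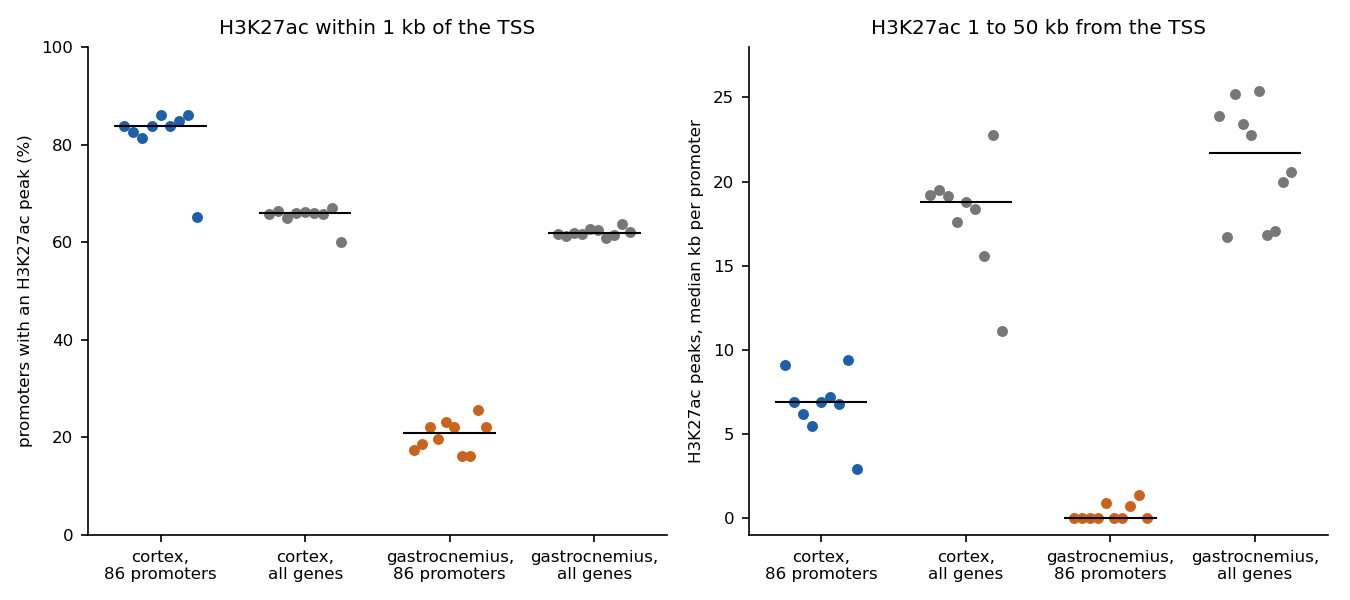
Left, share of promoters with an H3K27ac peak within 1 kb of the TSS (vertical axis, %); right, median kb under H3K27ac peaks from 1 to 50 kb away (vertical axis, kb), each for the 86 promoters and for all autosomal genes in the 9 cortex and 10 gastrocnemius libraries, with 1 point per library and a line at the median. At the 86 promoters the lowest cortex share is 65.1% and the highest gastrocnemius share is 25.6%.

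The rule limited H3K27me3 in the window, so its surroundings were set beside those of the 15357 autosomal genes under the same limit, a comparison chosen after seeing the data. Within 10 kb of the TSS, an H3K27me3 peak was found for 4.65% to 15.1% of the 86 over the cortexes with a median of 9.30%, and for 13.3% to 17.4% of those genes with a median of 16.2%. In gastrocnemius the medians were 10.47% and 12.8%. Library by library, the share of the 86 was the lower of the pair in 9 of 9 cortexes, with a median difference of -7.24 percentage points, and in 7 of 10 gastrocnemius libraries, the others being 5, 6 and 9. Against the 9835 of those genes that also had cortex H3K4me3, likewise chosen after seeing the data, with medians of 16.6% in cortex and 15.2% in gastrocnemius, it was the lower in 9 of 9 cortexes and in 9 of 10 gastrocnemius libraries, the other being 5. The rule used these H3K27me3 libraries, so no test was made. Gastrocnemius 5, 6, 9 and 10 carry a run number in their deposited names and had more H3K27me3 reads under peaks than the other gastrocnemius libraries. The part of either in these shares was not tested. The share of the 86 reached 38.4% in gastrocnemius 5, the library with the most H3K27me3 reads, and 5.81% to 20.9% in the others, and that of the 15357 genes reached 26.7% there. In that library 13.95% of the 86 had a peak in the window itself, the highest share of any H3K27me3 library, and 21 members had H3K27me3 in a single gastrocnemius library.

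Among the adhesion genes, 11 of 20 were called higher in cortex for H3K27ac, where 62.8% of the 86 and 6.25% of all autosomal genes were. Differences between the groups made by hand were not tested. Cdh7 had between 7.19 and 10.1 RPM in the cortexes with a median of 8.51, and no peak in any gastrocnemius (adjusted p = 0.000252 by Fisher's exact test, 9 of 9 against 0 of 10 libraries). Cdh10 had 7.66, 9.39 and 10.1 RPM as the lowest, median and highest cortex, also with no gastrocnemius peak and the same adjusted p. It belongs to the smallest p that 9 against 10 libraries can give, 1.08e-05. Cdh9, chosen after its values were seen, averaged 6.33 ± 1.01 RPM (SD, n = 9), and the related Cdh19 had a peak in 6 of 9 cortexes and none in gastrocnemius, a call with the same adjusted p and the same losses as that of Pcdha12 below. Of 23 autosomal cadherins numbered in this family, these 4 were members and 13 had H3K4me3 in both tissues, counting a peak in any gastrocnemius library.

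Of 6 contactins 1 was a member, and of 7 contactin-associated Cntnap genes 3 were. Cntn6, an immunoglobulin-type adhesion protein of developing neurons, had 5.49 to 9.57 RPM of H3K27ac in cortex with a median of 6.12. Cntnap5a, of the neurexin superfamily, had 4.36 to 8.72 RPM with a median of 6.68, and Lrrtm4, which organises excitatory synapses, had 5.49 to 8.66 RPM with a median of 7.84. None of them had a gastrocnemius peak, and each was called with an adjusted p of 0.000252 (Fisher's exact test). The other members among the Cntnap genes, Cntnap5b and Cntnap5c, averaged 4.03 ± 1.61 and 3.36 ± 1.74 RPM (SD, n = 9), with a peak in 8 of 9 cortexes and no gastrocnemius for each (adjusted p = 0.00194, Fisher's exact test). Omg, a myelin glycoprotein on oligodendrocytes and neurons, had 7.21 to 15.1 RPM with a median of 7.84 in cortex and a peak in 2 of 10 gastrocnemius libraries, the higher at 1.59 RPM (adjusted p = 0.00978, Fisher's exact test).

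The clustered protocadherins give single neurons distinct surface identities by choosing among alternative promoters. Of 14 Pcdha promoters 4 were members and of 22 Pcdhb promoters 3 were, and of these 7 members Pcdha12 alone was called higher in cortex for H3K27ac. All 7 lie on chromosome 18, and no Pcdha or Pcdhb promoter with H3K4me3 in cortex alone had gastrocnemius H3K27me3 in at least 8 of 10 libraries. Variable exons of these clusters resemble each other, so how reads were placed among them is uncertain. Of 14 Pcdha promoters, 12 had cortex H3K4me3 in at least 8 of 9 libraries, 2 of them also in gastrocnemius, counting a peak in any library. Pcdha3 had 3.02, 3.40 and 5.55 RPM of H3K4me3 as the lowest, median and highest cortex, and Pcdha6, which shares its window with Gm38666, had 2.10, 3.48 and 4.47 RPM. Neither had an H3K27ac peak in any library of either tissue, nor did Pcdha7, Gm38667 and Pcdhb9. Pcdha12 had H3K27ac in 6 of 9 cortexes and no gastrocnemius (adjusted p = 0.0356, Fisher's exact test, and up to 0.102 when any gastrocnemius but 9 was left out), and Pcdhb6 and Pcdhb19 had a peak in 1 cortex each.

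Of the 16 channels, receptors and transporters, 13 were called higher in cortex, where 62.8% of the 86 and 6.25% of all autosomal genes were. Scn2a had 5.19 to 8.56 RPM of H3K27ac in cortex with a median of 6.54 and none in gastrocnemius (adjusted p = 0.000252, Fisher's exact test). Its neighbour Scn3a, a sodium channel prominent in the developing brain, had 3.38 to 7.74 RPM with a median of 3.77 in cortex and a peak in 3 gastrocnemius libraries, the highest at 1.92 RPM (adjusted p = 0.0356, Fisher's exact test). That call was lost, at an adjusted p of up to 0.102 by the same test, when gastrocnemius 1, 3, 4, 6, 7, 8 or 10 was left out, and with a window of 2.5 kb the adjusted p was 1. Gabrg1, a GABA type A receptor subunit, had 4.15 to 7.30 RPM with a median of 5.19 and no gastrocnemius peak.

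P2ry12 and P2ry13 are ADP receptors of microglia that lie near each other on chromosome 3. P2ry12 had at most 5.99 RPM of cortex H3K4me3, a median of 3.58 and no peak in cortex 2, while its H3K27ac was present in 9 of 9 cortexes at 2.67 to 6.49 RPM and in no gastrocnemius (adjusted p = 0.000252, Fisher's exact test). P2ry13 had 1.91, 4.57 and 6.01 RPM of H3K4me3 as the lowest, median and highest cortex, and H3K27ac in 9 cortexes and in gastrocnemius 9, there at 0.199 RPM (adjusted p = 0.00194, Fisher's exact test). Slco1c1, which carries thyroid hormone across the barrier, had 5.90, 8.05 and 13.0 RPM of cortex H3K4me3 and 4.15 to 7.10 RPM of H3K27ac. Slco1a4, an organic anion transporter beside it on chromosome 6, had 3.17, 5.05 and 8.34 RPM of H3K4me3 and lacked H3K27ac in cortex 9 alone, which had the fewest reads. Slc8a1 had H3K27ac in 9 of 9 cortexes, at 2.45 to 7.49 RPM, and in no gastrocnemius. Among the enzymes and signalling proteins, 10 of 13 were called higher in cortex, where 62.8% of the 86 and 6.25% of all autosomal genes were. Rit2 was called with 5.93 to 11.1 RPM in cortex.

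At 8 members the gene had another TSS, more than 2 kb downstream, with H3K4me3 in 10 of 10 gastrocnemius libraries. Of the 86, 13 had a further annotated TSS at that distance, as did 1784 of all 24963 autosomal genes. It was marked in at least 9 gastrocnemius libraries at 8 of the 13 (61.5%), the same 8 members, and at 945 of the 1784 (53.0%). No other gene started within 1 kb of these 8 sites. They were 10.8 kb (Fez1) to 674.5 kb (Celf2) from the upstream TSS, and 7 of them were marked in all 9 cortexes too, so that the cortex had H3K4me3 at both starts and the muscle at the downstream one.

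**Figure D5:**
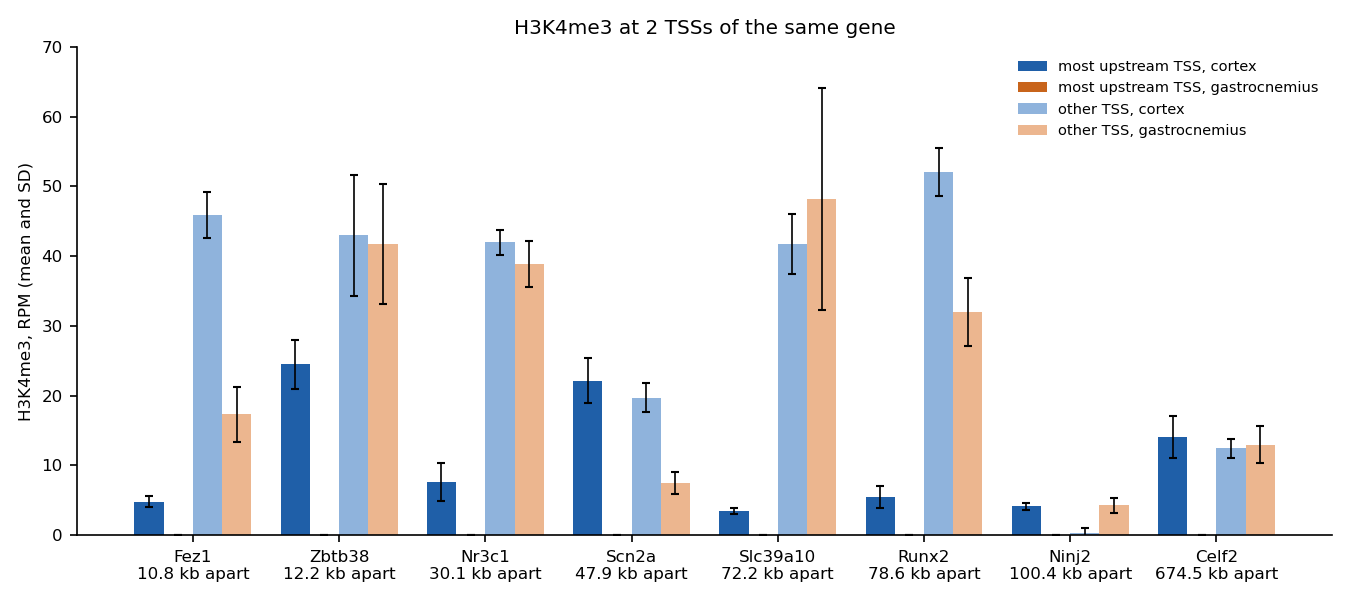
Mean H3K4me3 in RPM with SD (vertical axis, 9 cortex or 10 gastrocnemius libraries) at the most upstream TSS and at the other TSS of 8 genes (horizontal axis, with the distance between the 2 sites). Gastrocnemius bars are at 0 at every upstream TSS, which the choice of genes fixed, and between 4.26 and 48.2 RPM at the other TSS.

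In Nr3c1, the glucocorticoid receptor, the upstream TSS had 4.67, 7.34 and 11.7 RPM of cortex H3K4me3, whereas the site 30.1 kb downstream had 38.8 to 45.1 RPM in cortex and 33.6 to 42.8 RPM in gastrocnemius. In Zbtb38 the downstream site, 12.2 kb away, had 43.0 ± 8.65 RPM in cortex and 41.8 ± 8.60 in gastrocnemius (SD, n = 9 and 10). The ranges of the tissues overlapped at the downstream site of both genes. At the upstream site the choice of genes had fixed the lack of a gastrocnemius peak, so overlap cannot be compared between the sites.

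Scn2a differed from them. Its downstream site, 47.9 kb away, had 16.5 to 22.4 RPM in cortex and 4.77 to 10.3 RPM in gastrocnemius, where H3K27me3 was also called in 6 of 10 libraries. In Fez1, an adaptor for axonal transport, the downstream site had 41.7 to 53.0 RPM in cortex and 11.9 to 26.98 in gastrocnemius, with gastrocnemius H3K27me3 in 5 of 10. In Runx2, a transcription factor of bone, it had 48.1 to 56.6 RPM in cortex and 22.9 to 40.3 in gastrocnemius, and H3K27me3 was called there in 10 of 10 gastrocnemius and 8 of 9 cortex libraries. The H3K4me3 values of the tissues did not overlap in these 3 genes.

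Celf2, a splicing regulator, had 10.1 to 19.5 RPM of cortex H3K4me3 at its upstream TSS and 11.05 to 15.02 RPM at the far one, where gastrocnemius had 8.95 to 17.3 RPM. Slc39a10, a zinc importer, had 3.45 ± 0.4664 RPM at its upstream TSS against 41.7 ± 4.35 downstream in cortex. Ninj2, an adhesion protein of injured nerve, was the reverse of the rest, since its downstream site had H3K4me3 in 10 gastrocnemius libraries, at 4.26 ± 1.10 RPM (SD, n = 10), and in cortex 8 alone, at 2.39 RPM. H3K27ac at the upstream TSS was called higher in cortex for Celf2, Nr3c1, Runx2, Fez1 and Scn2a. Celf2 had 7.82 to 13.4 RPM there, Nr3c1 4.97 to 7.54 and Fez1 7.81 to 10.3, all without a gastrocnemius peak (adjusted p = 0.000252 each, Fisher's exact test), and Runx2 had it in 8 of 9 cortexes and in gastrocnemius 9 (adjusted p = 0.0145, Fisher's exact test). St18, a zinc finger factor, was called as well, at 3.63 to 5.25 RPM with no gastrocnemius peak.

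The 17 members with H3K27ac in both tissues had no gastrocnemius H3K4me3 at the TSS, yet all had such a peak within 50 kb by the distance to the nearest peak of each gastrocnemius library, taken as the median over the 10 libraries. That distance was 3.5 to 46.5 kb with a median of 11.6 kb over the 17, against 2.1 to 5644.4 kb with a median of 115.6 kb for the other 69 members, 22 of which lay within 50 kb. In single libraries a peak came nearer, down to 1661 bp at Asah2 among the 17 and 1141 bp at Mir1906-1 among the 69. Calls in nearly every library leave little room for a difference between tissues, so the reads of these 17 were compared with edgeR's quasi-likelihood test, with uncalled promoters set at the lowest read density of a called peak of the library. Of the 17, 13 were higher in cortex and 1 was lower at an FDR of 0.1, where 23.9% of all promoters tested were higher and 14.6% lower.

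Asah2, a neutral ceramidase, had 7.27, 8.60 and 11.4 RPM of H3K27ac as the lowest, median and highest cortex and 2.96, 4.82 and 7.13 RPM in gastrocnemius. The ranges did not overlap, and the log2 difference was 0.59 (adjusted p = 0.00215, edgeR). Gpr61 had 7.74 to 10.8 RPM in cortex and 1.08 to 7.23 in gastrocnemius, again without overlap (log2 difference 0.87, adjusted p = 0.00171, edgeR). Zbtb38 had 9.55 to 15.4 RPM in cortex and 0.283 to 7.74 in gastrocnemius (log2 difference 1.22, adjusted p = 0.0131, edgeR). Aldoc, the brain form of aldolase and chosen after its values were seen, had 5.76 to 12.6 RPM in cortex and 1.96 to 5.57 in gastrocnemius (log2 difference 0.87, adjusted p = 0.000615, edgeR).

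Apol8, an apolipoprotein L gene, was the member lower in cortex. It had 4.59, 5.52 and 8.38 RPM of H3K27ac as the lowest, median and highest cortex and 2.17, 8.48 and 10.02 RPM in gastrocnemius, with overlapping ranges. The log2 difference was -0.56 (adjusted p = 0.0434, edgeR) and the adjusted p lay between 0.00869 and 0.0966 in the other tests of reads, the last with the mouse as a block. The long non-coding RNAs Gm19500, at 5.96 ± 0.533 RPM in cortex and 5.46 ± 0.725 in gastrocnemius, and A930002C04Rik, at 5.03 ± 0.860 and 4.05 ± 1.01, did not pass (SD, n = 9 and 10; adjusted p = 0.468 and 0.555, edgeR).

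Of 14 long non-coding RNAs, 7 were called higher in cortex for H3K27ac, where 62.8% of the 86 and 6.25% of all autosomal genes were. H3K27ac was in at least 7 gastrocnemius libraries at 5 of the 14, and at 17 of the 86. Another group of 5 members lay together on chromosome 7, between Snrpn and Ndn, in a region known for imprinted genes and small RNAs of the brain. They were Gm29729, A230006K03Rik, B230209E15Rik, A330076H08Rik and Mir344g, with TSSs from 60939883 to 61982359. Of 18 annotated genes starting between Snrpn and Ndn, these 5 were the ones with cortex H3K4me3 in at least 8 of 9 libraries, none of the 18 had it in gastrocnemius, and 12 had it in no library.

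H3K27ac differed along this stretch. A330076H08Rik, whose window overlaps that of Mir344g, had 9.08 ± 1.16 RPM of cortex H3K4me3 and H3K27ac in 9 of 9 cortexes at 2.95 to 4.95 RPM. B230209E15Rik had 8.35 ± 1.08 RPM and H3K27ac at 3.76 to 5.68 RPM. A230006K03Rik had 5.25 ± 0.662 RPM and H3K27ac in 5 cortexes, and Gm29729 had 4.52 ± 0.874 RPM and no H3K27ac in any library (SD, n = 9 throughout). Sgo2b, a shugoshin gene on chromosome 8, was the only protein-coding member outside the protocadherin cluster without any H3K27ac, at 4.26 ± 0.857 RPM of H3K4me3.

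For microRNA genes the annotated start is that of the hairpin, so the windows show the marks over the hairpin and not at the start of the primary transcript. Their mature sequences are given with the seed, bases 2 to 8, in capitals, because they name the products of the loci concerned.
mmu-miR-219a-5p (Mir219a-2): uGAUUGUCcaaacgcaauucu
mmu-miR-219b-5p (Mir219b): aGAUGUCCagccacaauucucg
mmu-miR-219b-3p (Mir219b): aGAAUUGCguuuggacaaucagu
mmu-miR-344g-5p (Mir344g): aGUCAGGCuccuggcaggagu
mmu-miR-344g-3p (Mir344g): cAGGCUCUagccaggggcuuga
mmu-miR-1906 (Mir1906-1): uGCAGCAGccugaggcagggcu
All 6 seeds differed. Mir219a-2 and Mir219b lie on opposite strands of the same stretch of chromosome 2, and miR-219 is known for promoting oligodendrocyte maturation. Cortex H3K4me3 over them was 12.2, 16.5 and 18.1 RPM as the lowest, median and highest library. H3K27ac was 7.67 to 10.3 RPM in cortex and reached 3.12 RPM in gastrocnemius, in 8 of 10 libraries. Mir1906-1 lies inside Meg3 on chromosome 12, 2.1 kb from the nearest H3K4me3 peak in the median gastrocnemius library, and had a median of 3.16 RPM of cortex H3K4me3 with no peak in cortex 7 and no H3K27ac in any library. The TSS of Meg3 itself had H3K4me3 in every library of both tissues.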

How the data were processed

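The authors aligned paired-end ChIP-seq reads to mm10 with BWA, removed unmapped, poorly mapped, duplicate and off-chromosome reads with SAMtools, and called peaks in each library with epic2. The deposited lists hold no column for an input library. The 57 deposited peak lists give, for each peak, a count of reads (whole numbers, not normalized) and a score against the random background of the library; reads outside peaks are not part of the lists. Depth below therefore means reads under peaks, which limits precision at weak promoters, and a peak near the caller's threshold can be called in one library and missed in another.

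TSSs were taken from RefSeq curated transcripts on GRCm38.p6, the most upstream per gene. Reads of a peak were shared by its overlap with the window and divided by the reads in autosomal peaks (RPM, per 1 M reads). Calls of H3K27ac (9 cortex and 10 gastrocnemius libraries) were compared by Fisher's exact test with Benjamini-Hochberg adjustment at an FDR of 0.1, in Python 3.11.15 with SciPy 1.17.1. Peak reads were compared with edgeR 4.0.16 and DESeq2 1.42.0 in R 4.3.3, in which reads of a promoter without a peak were set at 0 or at the lowest read density of a called peak. The scripts were tested on simulated data. Replicates are separate mice. Libraries were matched across tissues by the animal code in their deposited names, and the pairing was checked: deviations from the group means of the 9 mice with both tissues correlated between -0.0564 and 0.0367.

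The 86 members, the gene lists and the role groups were chosen with earlier results of these data known. Genes were named by rule: up to 4 members per list with the highest cortex H3K27ac, the 6 with the highest cortex H3K4me3, the 5 with the highest gastrocnemius H3K27ac, the 5 with the highest H3K4me3 but no cortex H3K27ac, the 6 with the highest H3K4me3 among those with another TSS marked in gastrocnemius, and 3 genes on each side of the threshold of the rule. Other members named, to complete a family, a locus or a group, were chosen after their values were seen. The 250 bases printed per promoter were read from the genome, and the RefSeq promoter table held 54 of the 86, all identical. Alternatives changed the window, the peaks used, the libraries, the FDR and the test.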

Additional observations from a re-analysis of the deposited data

Results flagged for a closer look

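Of 81 groups of values examined for the 86 promoters and the genes named, 14 held a library farther from the rest than Dixon's 95% limit, where chance alone gives about 1 in 20 for continuous values. That rate does not hold for P2ry13, Runx2 and Pcdhb6 below, where a single peak among libraries at 0 RPM always passes the limit. Cortex 9, which had the fewest H3K27ac reads, accounted for several. The share of promoters with H3K27ac was 65.1% there, against 81.4% to 86.05% in the other cortexes. It had no H3K27ac peak at Slco1a4 or Runx2, both at 0 RPM against 2.38 and 3.39 RPM or more elsewhere in cortex, and the highest values at Omg, 15.1 RPM, and Zbtb38, 15.4 RPM, where the other cortexes reached 8.89 and 11.5 RPM.

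Gastrocnemius 5, with the most H3K27me3 reads, had an H3K27me3 peak at 13.95% of the promoters, against at most 2.33% in the others, and within 10 kb of 38.4%, against at most 20.9%.

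In gastrocnemius H3K27ac, a single library stood above others at 0 RPM for P2ry13, with 0.199 RPM in gastrocnemius 9, and for Runx2, with 3.15 RPM in the same library. Omg had 1.59 RPM in gastrocnemius 3, where the next was at 0.411 RPM. Apol8 had 2.17 RPM in gastrocnemius 2, below 6.68 to 10.02 RPM in the rest.

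In cortex, Lrrtm4 had 22.2 RPM of H3K4me3 in cortex 4, above 15.6 RPM, the next highest. Slc8a1 had no H3K4me3 peak in cortex 2, at 0 RPM against 4.70 RPM or more. Pcdhb6 had 2.24 RPM of H3K27ac in cortex 7 and none in the other cortexes. The part of depth in these values was not tested.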

How the results depend on the processing

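The number of the 86 promoters called higher in cortex for H3K27ac, 54, was between 47 and 55 with other windows, peak sets, libraries, an FDR of 0.05 or any 1 library left out (50 to 55). On reads it was 49 of 56 members tested with edgeR (TMM, with DESeq2 size factors, and with the mouse as a replicate block; also 49 without the block on the same 9 mice, a comparison chosen after seeing the data), 66 of 86 with uncalled promoters at the lowest density, 67 of 74 with DESeq2 and 70 of 77 with no filter on low counts, where 23.9% to 30.5% of all promoters tested were higher, and 1 member, Apol8, was lower in each of these. Of the 56, 45 would not have passed the filter on low counts by their gastrocnemius libraries alone, so the 49 are no separate support, and the filters behind the 74 and 77 also left out members with few or no reads. The block is set by animal code and no pair correlated above 0.1. The tests covered different sets of genes. Calls higher in cortex numbered 1561 of 24963 genes by Fisher's exact test, 4471 of 16541 by edgeR, 4309 of 16445 with the block and 5548 of 18195 by DESeq2, and those lower in cortex 691, 4510, 4056 and 4814. The rule itself gave between 59 and 119 promoters. Equally many top-scoring peaks per library gave 119, of which 72 were among the 86, leaving out the lowest-scoring 25% of peaks gave 72, of which 48 were, and H3K27me3 in no library gave 59. Leaving out 1 library gave 86 to 95. With equally many top peaks, the share with H3K27ac was 75.6% in the median cortex and 17.4% in the median gastrocnemius, where 83.7% and 20.9% were found with all peaks. A reach of 20 kb in place of 50 kb gave 3.80 kb of H3K27ac in cortex, and 5 kb in place of 10 kb gave H3K27me3 near 4.65% of promoters in cortex. Over 1 kb on each side of the TSS, 5.81% of the 86 had a CpG ratio above 0.6 (32.8% of all genes) and 68.6% held CAGCTG (62.9%). The cause of these shifts was not tested. At the genes named, 352 of 390 alternative results kept direction and side of the threshold, 36 at 6 members passed it only there, Scn3a lost it with a window of 2.5 kb and Slco1a4 with equally many top peaks (adjusted p = 0.104, Fisher's exact test), and none reversed.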

Other observations

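On the X chromosome, 4 genes met every condition except that of lying on an autosome, and they entered no comparison.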
